A study of Mus musculus with 14 samples.

Results

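The 9 genes described here code for the signaling chains of the B cell receptor (BCR), its coreceptors and the first enzymes and adaptor below it, namely Cd79a, Cd79b, Cd22, Cd72, Ms4a1, Btk, Blnk, Lyn and Syk. They were chosen by gene name, and every probe whose RefSeq accession maps to one of these names was read, 14 probes in all. The 9 genes stand among 24908 genes tested on the same arrays. RNA came from splenocytes of 7 WT C57BL/6 mice and 7 Sting gt/gt mice on the same background, all aged 10 to 14 weeks at immunization. Every mouse of both groups had been immunized once with chicken type 2 collagen (CII) in complete Freund's adjuvant (CFA), which starts collagen-induced arthritis, and was taken at 2 weeks, so there was no unimmunized group on the arrays. The gt, or golden ticket, allele is a chemically induced missense mutation of Sting1 that removes STING, the adaptor of the cytosolic DNA sensing pathway, in all cells. The WT mice were purchased and the Sting gt/gt mice were supplied by another laboratory, so source and genotype cannot be told apart. Red cells were lysed and the remaining spleen cells were not sorted. The question was whether loss of STING changed the RNA of the BCR apparatus after immunization.

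The BCR is a membrane immunoglobulin that binds antigen and cannot signal by itself. Its signal passes through CD79A and CD79B, which carry the tyrosine motifs that LYN phosphorylates and to which SYK then binds. SYK phosphorylates the adaptor BLNK, which brings BTK to its substrates and so opens the calcium and NF-kB arms. CD22 and CD72 are inhibitory coreceptors that recruit phosphatases, and CD20, the product of Ms4a1, is a membrane protein found near the BCR. In the spleen the BCR marks B cells, while LYN, SYK and BTK also serve receptors of myeloid cells.

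The mice were scanned in 2 sets. Replicates 1 to 3 of both genotypes were scanned on one day (the first set) and replicates 4 to 7 on a later one (the second set). On the later day, the 4 Sting gt/gt arrays lay on 1 slide and the 4 WT arrays on 2 other slides, so slide and genotype cannot be told apart there. The intensity at the 75th percentile, by which each array was scaled, ranged from 562 to 766, and 30781 to 34400 probes were well above background. All 10 B cell markers and all 10 T cell markers examined were above background on all 14 arrays, so the labelled tissue held its main lymphocytes. Sting1 had a mean log2 signal of 2.61 ± 0.17 (SD, n = 7) in WT and 2.64 ± 0.10 (SD, n = 7) in Sting gt/gt mice, which says nothing about the labels, as a missense allele can leave its mRNA in place. Unless stated otherwise, levels are the log2 processed signal minus the array's 75th percentile, and a level of one probe cannot be set against that of another. Because whole spleen cells were measured, fewer B cells and less RNA per B cell cannot be told apart in any value below.

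The start regions of 4 of the genes are shown, since Cd79a and Cd22 are a signaling chain and a coreceptor whose levels moved together below, while Blnk and Btk are an adaptor and a kinase with smaller differences. RefSeq windows were at hand for 6 of the 9 genes (Cd79a, Cd22, Cd72, Syk, Blnk and Btk), each from 250 bases before the start of a transcript to 50 bases after it, on build GRCm38.p6. Each is printed 5′ to 3′ on the strand of its gene. They lie at chr7:24897247-24897546 on the plus strand for Cd79a, chr7:30878979-30879278 on the minus strand for Cd22, chr19:40994172-40994471 on the minus strand for Blnk and chrX:134583091-134583390 on the minus strand for Btk. Capitals mark matches to 3 motifs of factors active in B cells, searched on both strands. These were CCCNNGGG for EBF, which reads the same on both strands, the octamer ATTTGCAT for the OCT factors, and GAGGAA for PU.1.
Cd79a: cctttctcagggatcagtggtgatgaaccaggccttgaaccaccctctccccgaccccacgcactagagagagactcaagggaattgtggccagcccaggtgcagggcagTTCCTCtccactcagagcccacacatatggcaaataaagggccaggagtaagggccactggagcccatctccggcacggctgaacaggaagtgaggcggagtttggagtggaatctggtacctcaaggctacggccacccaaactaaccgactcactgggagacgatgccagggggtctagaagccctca
Cd22: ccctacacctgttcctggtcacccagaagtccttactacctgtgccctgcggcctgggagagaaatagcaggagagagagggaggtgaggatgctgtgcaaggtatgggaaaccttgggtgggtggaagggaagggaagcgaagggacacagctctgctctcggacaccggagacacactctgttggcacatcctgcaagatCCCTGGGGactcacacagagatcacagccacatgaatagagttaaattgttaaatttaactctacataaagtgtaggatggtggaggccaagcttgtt
Blnk: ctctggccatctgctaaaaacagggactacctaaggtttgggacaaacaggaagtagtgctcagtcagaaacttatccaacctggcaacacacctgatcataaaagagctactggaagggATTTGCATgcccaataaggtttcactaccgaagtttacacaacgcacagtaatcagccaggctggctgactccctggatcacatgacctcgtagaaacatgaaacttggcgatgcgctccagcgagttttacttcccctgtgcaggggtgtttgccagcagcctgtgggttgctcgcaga
Btk: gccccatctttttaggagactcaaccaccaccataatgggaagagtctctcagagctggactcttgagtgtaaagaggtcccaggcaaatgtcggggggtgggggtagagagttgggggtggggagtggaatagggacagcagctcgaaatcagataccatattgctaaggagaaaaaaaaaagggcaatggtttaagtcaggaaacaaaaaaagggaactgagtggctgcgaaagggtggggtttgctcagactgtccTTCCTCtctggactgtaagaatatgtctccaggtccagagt
Cd79a held 1 match to the PU.1 letters, which began at position -140 when the start base is counted as 0. Cd22 held 1 match to the EBF letters at position -48. Blnk held 1 octamer at position -130, and Btk held 1 match to the PU.1 letters at position 9, after its start. None of these matches overlapped another. Of all 32851 windows in the table, 13.7% held the EBF letters, 1.74% the octamer and 28.3% the PU.1 letters, so the octamer of Blnk was the rarest of the 3. Only exact matches of letters were marked, so a site that departs from them by a base is missed. A window without a mark, as that of Cd79a for EBF, may thus still hold a site. No binding was measured.

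Over all 14 arrays, no member of the receptor apparatus passed the test for a difference by genotype. By limma, 0 of 9 passed an unadjusted p of 0.05, the threshold of the study, where 3.48% of all genes did (464 higher and 404 lower in Sting gt/gt). Of these calls 46.5% were lower, against 69.4% with median centring, 80.5% without scaling between arrays and 36.2% with another background correction (normexp). After Benjamini-Hochberg adjustment over all genes, every one of the 9 had an adjusted p of 0.9998 by limma, and 0.00401% of all genes, 1 in number, passed. In the log2 fold change of Sting gt/gt over WT, 3 of the 9 were above 0 and 6 below, with a median of -0.06 beside 0.02 for all genes. The ranges of the 2 genotypes overlapped for every member.

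The signaling chains of the receptor lay close together in the 2 genotypes. Cd79a had a median of -0.47 in the 7 WT mice (range -0.99 to 0.21) and of -0.43 in the 7 Sting gt/gt mice (range -0.53 to 0.07). Its log2 fold change was -0.06 ± 0.18 (SE), with a 95% confidence interval of -0.43 to 0.32. Cd79b ranged from 5.28 to 5.94 in WT, with a median of 5.45, and from 5.13 to 5.88 in Sting gt/gt, with a median of 5.32. Its log2 fold change was -0.19 ± 0.14 (SE; interval -0.49 to 0.11). Only 2 of the 7 Sting gt/gt mice exceeded the WT median of Cd79b, and the exact permutation test (two-sided) gave p = 0.18.

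Among the surface molecules, Cd22 and Ms4a1 lay lower on average in Sting gt/gt mice without passing the test, and Cd72 was close to 0 with a sign that turned with the scaling, as did that of Lyn below. Cd22 ranged from 0.70 to 1.75 in WT and from 0.67 to 1.73 in Sting gt/gt, with medians of 1.35 and 1.18. This gave a log2 fold change of -0.15 ± 0.18 (SE; interval -0.54 to 0.23). Ms4a1 ranged from 4.19 to 5.32 in WT and from 4.35 to 4.90 in Sting gt/gt, with medians of 4.75 and 4.58. Its log2 fold change was -0.20 ± 0.17 (SE; interval -0.57 to 0.17). Over both sets together, the WT mice spread about as far on Ms4a1 (SD 0.43) as on Cd79a (SD 0.43). The Sting gt/gt mice spread less on both genes (SD 0.20 and 0.21). These SDs also hold the difference between the sets. Within the first and second set, the SDs of Ms4a1 were 0.24 and 0.26 in WT and 0.26 and 0.19 in Sting gt/gt mice. Those of Cd79a were 0.28 and 0.31 in WT and 0.32 and 0.10 in Sting gt/gt mice. Cd72 had a median of 2.54 in both genotypes and a log2 fold change of 0.00 ± 0.13 (SE; interval -0.27 to 0.28).

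The kinases and the adaptor differed little. Lyn had medians of 4.82 in WT and 4.93 in Sting gt/gt, and a log2 fold change of 0.02 ± 0.10 (SE; interval -0.20 to 0.24). Syk had medians of 3.61 in both genotypes and a log2 fold change of -0.01 ± 0.10 (SE; interval -0.23 to 0.21). Btk had medians of 2.78 and 2.92, and a log2 fold change of 0.08 ± 0.11 (SE; interval -0.15 to 0.30). Blnk had medians of 4.83 in WT and 4.71 in Sting gt/gt, and only 1 of the 7 Sting gt/gt mice exceeded the WT median. Its log2 fold change was -0.08 ± 0.12 (SE; interval -0.33 to 0.17). For Lyn and Syk the intervals leave out a change of 0.25 on the log2 scale in either direction, while for Cd22 and Ms4a1 they reach a fall of more than 0.5.

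These results held when replicate numbers or scan days were put in the fit as a block, with 0 of 9 called in each. Over all genes the replicate block moved the count of calls from 868 to 1416 and the scan-day block to 1812. With array weights and an intensity trend, Cd79b (log2 fold change -0.31) and Ms4a1 (-0.34) passed the unadjusted threshold as lower in Sting gt/gt, in a fit that called 4757 genes. Without Sting gt/gt replicate 3, Cd79b also passed (log2 fold change -0.28).

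The 2 sets were then read apart, and here 4 of the genes parted from the other 5. In the second set, Cd79a, Cd79b, Cd22 and Ms4a1 were lower in Sting gt/gt mice, by 23.6%, 28.7%, 31.1% and 28.8% on the linear scale, and the other 5 genes did not pass the test. Thus 4 of 9 were called lower in a contrast that called 22.1% of all genes, 2730 higher and 2777 lower. The log2 fold changes of the same 4 genes were above 0 in the first set, and 0 of 9 genes passed, where 5.56% of all genes did. With 1 array left out, 1 gene passed as higher there in 3 cases, Cd22 (0.52) without WT replicate 2, and Cd79a without Sting gt/gt replicate 2 (0.50) or without WT replicate 6 (0.39), which enters only through the shared spread. The median log2 fold change of the 9 was 0.02 in the first set and -0.15 in the second, beside 0.02 for all genes in either. After adjustment over all genes, 0 of 9 passed in the second set, where 3.68% of all genes did, and 0 of 9 in the first, where 0% did.

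**Figure D1:**
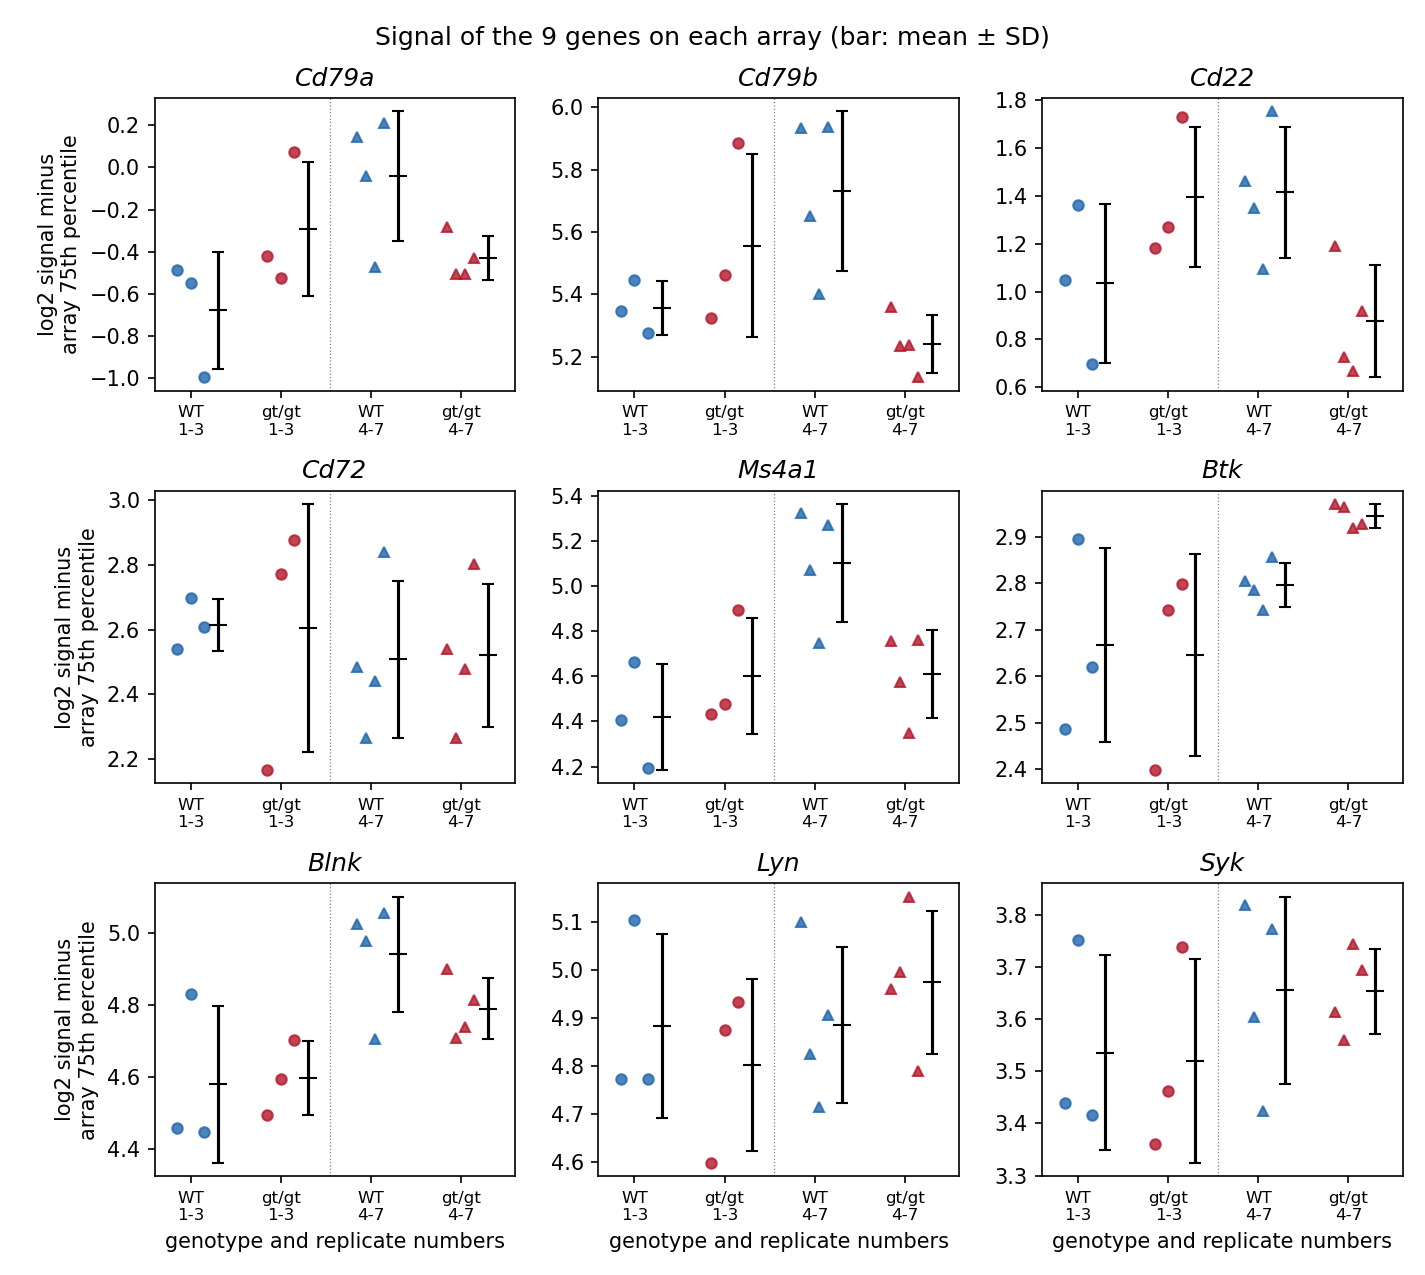
Log2 signal minus the array's 75th percentile (vertical axis) of the 9 genes on each of the 14 arrays, by genotype (WT blue, Sting gt/gt red) and replicate set (circles 1 to 3, triangles 4 to 7), with black bars for the mean ± SD of each set. Cd79a, Cd79b, Cd22 and Ms4a1 are lower on average in Sting gt/gt than in WT mice in replicates 4 to 7 and higher on average in replicates 1 to 3, and the vertical scale differs between panels.

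Cd79b, the partner chain of CD79A, showed the clearest parting in the second set. The WT mice had levels of 5.93, 5.65, 5.40 and 5.94, and the Sting gt/gt mice had 5.36, 5.24, 5.24 and 5.13. All 4 Sting gt/gt mice lay below all 4 WT mice, although the nearest values, of WT replicate 6 and Sting gt/gt replicate 4, were close. This was a log2 fold change of -0.49 ± 0.14 (SE), with p = 0.0046 and an adjusted p of 0.074 by limma, and the exact permutation test gave p = 0.029, the smallest that 4 against 4 allows. The first set had 5.35, 5.45 and 5.28 in WT and 5.32, 5.46 and 5.88 in Sting gt/gt mice. Those groups overlapped, and replicate 3 alone stood above the WT mice by a clear margin (log2 fold change 0.20 ± 0.17, SE).

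Cd79a had a smaller difference in the second set. Its levels were 0.14, -0.04, -0.47 and 0.21 in WT and -0.28, -0.50, -0.50 and -0.43 in Sting gt/gt mice. WT replicate 6 lay among the Sting gt/gt mice and the other 3 WT mice lay above them. Its log2 fold change was -0.39 ± 0.17 (SE), with p = 0.045 by limma and an exact permutation p of 0.086. The call ended in 10 of 19 alternative settings, namely with quantile scaling, without scaling, in the series table, and when WT replicate 2, 4, 5 or 7 or Sting gt/gt replicate 5, 6 or 7 was left out. The log2 fold change stayed between -0.53 and -0.31 in all 19, though leaving out arrays of the first set could not move it. The first set had -0.49, -0.55 and -0.99 in WT and -0.42, -0.53 and 0.07 in Sting gt/gt mice, a log2 fold change of 0.39 ± 0.20 (SE) that did not pass (exact permutation p = 0.20).

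Cd22, the inhibitory lectin of the receptor complex, had the largest log2 fold change of the 9 in the second set. The WT mice had 1.46, 1.35, 1.09 and 1.75 and the Sting gt/gt mice 1.19, 0.73, 0.67 and 0.92. The groups overlapped through 1 animal each, as Sting gt/gt replicate 4 lay above WT replicate 6. This amounted to a log2 fold change of -0.54 ± 0.19 (SE), with p = 0.013 and an adjusted p of 0.12 by limma, and an exact permutation p of 0.057. The first set had 1.05, 1.36 and 0.70 in WT and 1.18, 1.27 and 1.73 in Sting gt/gt mice, a log2 fold change of 0.36 ± 0.22 (SE) that did not pass (exact permutation p = 0.30).

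Ms4a1, the gene of CD20, followed the same course. In the second set the WT mice had 5.32, 5.07, 4.75 and 5.27 and the Sting gt/gt mice 4.76, 4.58, 4.35 and 4.76. WT replicate 6 again lay level with the highest Sting gt/gt mice. The difference was -0.49 ± 0.16 on the log2 scale (SE), with p = 0.0098 and an adjusted p of 0.10 by limma, and an exact permutation p of 0.086. Mice of the first set had levels of 4.41, 4.66 and 4.19 (WT) and 4.43, 4.48 and 4.90 (Sting gt/gt), and the log2 fold change of 0.18 ± 0.19 (SE) did not pass. Under the 19 alternative settings run for this contrast, Cd79b, Cd22 and Ms4a1 stayed below 0 and under an unadjusted p of 0.05. Their highest p were 0.018, 0.047 and 0.036 by limma. Leaving out an array of the first set, or fitting the second set alone, could change only the p and not these log2 fold changes. Median centring, normexp, array weights and slide blocks were not run for the sets apart.

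The kinases, the adaptor and Cd72 did not share this. Their log2 fold changes in the second set were 0.01 ± 0.17 (SE) for Cd72, -0.15 ± 0.12 for Blnk, 0.09 ± 0.13 for Lyn and -0.0020 ± 0.12 for Syk, and in the first set these 4 genes lay between -0.08 and 0.02. Btk, the kinase whose loss impairs B cell development, was an exception in one respect. Its 4 Sting gt/gt mice of the second set had 2.97, 2.96, 2.92 and 2.93, all above the WT mice with 2.80, 2.78, 2.74 and 2.86. Limma, which shares the spread between the sets, gave a log2 fold change of 0.15 ± 0.11 (SE) and an adjusted p of 0.46, while the exact permutation test gave its smallest p, 0.029. Btk above and Cd79b below were the 2 of 9 genes whose genotypes did not overlap in the second set, where this held for 14.7% of all genes. For Btk this depended on the scaling. In the deposited series table its genotypes overlapped, with 12.15 in WT replicate 7 and 12.07 in Sting gt/gt replicate 5. Btk had a log2 fold change of 0.069 there and of 0.075 with quantile scaling. Over the first set Btk spread from 2.40 to 2.89 with a log2 fold change of -0.02 ± 0.13 (SE).

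**Figure D2:**
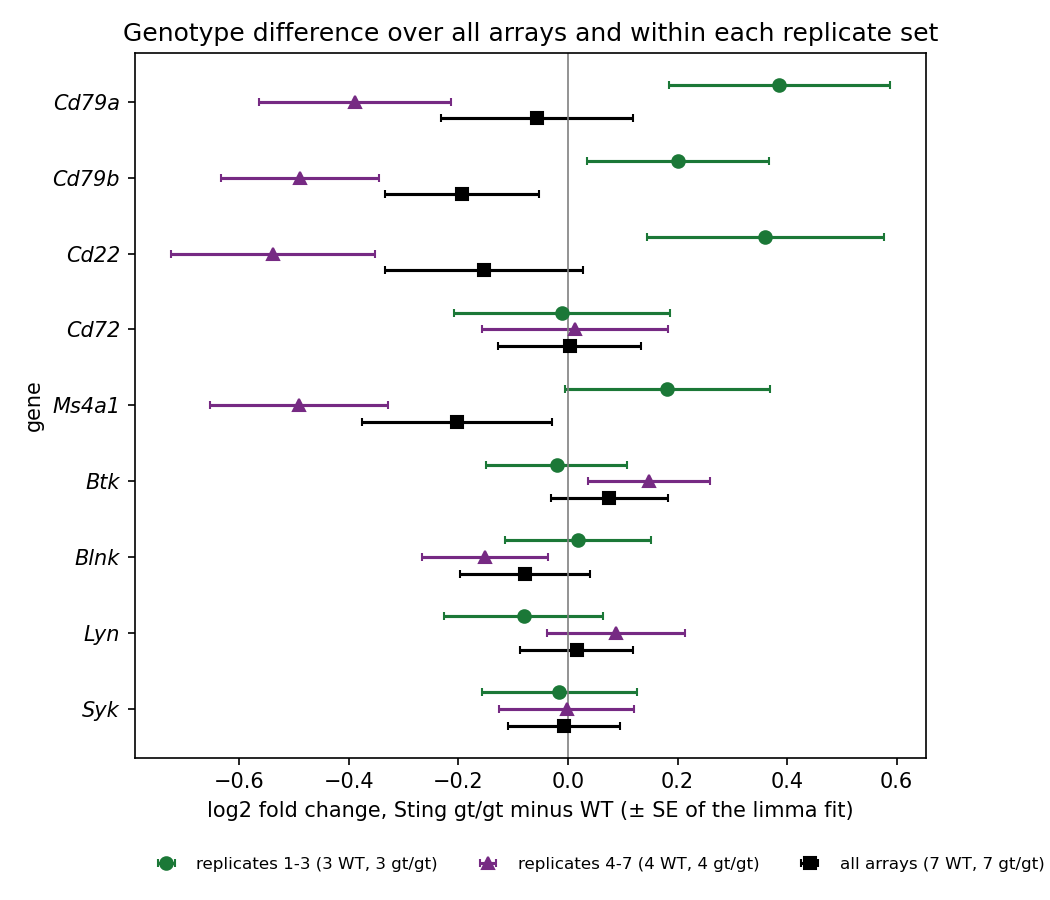
Log2 fold change of Sting gt/gt over WT (horizontal axis, ± SE of the limma fit) for each of the 9 genes (vertical axis), over all 14 arrays (black squares), in replicates 1 to 3 (green circles) and in replicates 4 to 7 (purple triangles). For Cd79a, Cd79b, Cd22 and Ms4a1 the 2 sets lie on opposite sides of 0, and the value over all arrays lies between them.

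The difference between the 2 sets was tested itself. Second set minus first set, the log2 fold change departed by -0.77 ± 0.27 (SE) for Cd79a, -0.69 ± 0.22 for Cd79b, -0.90 ± 0.29 for Cd22 and -0.67 ± 0.25 for Ms4a1. The exact permutation of genotypes within scan days gave p = 0.019, 0.0071, 0.013 and 0.023, in that order, and limma's p lay between 0.0076 and 0.018. For the other 5 genes the difference lay between -0.17 and 0.17, and the permutation p was 0.30 or higher. Adjusted over all genes, 0 of 9 passed, with adjusted p of 0.13 to 0.18 by limma for the first 4, where 0.767% of all genes did. Since the scan day and the set of mice are the same division, they cannot be told apart.

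Within single slides of the first set the picture was mixed. On the slide with WT replicates 1 and 2 and Sting gt/gt replicate 1, the Sting gt/gt array minus the WT mean was 0.10 for Cd79a, -0.07 for Cd79b, -0.02 for Cd22 and -0.10 for Ms4a1. On the slide with WT replicate 3 and Sting gt/gt replicate 2, it was 0.47, 0.19, 0.57 and 0.28 for the same genes. These are single arrays with no test. With slide as a fixed block, which can draw on these 5 arrays alone for the genotype, the log2 fold changes were 0.26 for Cd79a, 0.04 for Cd79b, 0.23 for Cd22 and 0.06 for Ms4a1, with p of 0.22 or higher by limma, so the 4 genes turned from below to above 0.

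Between the scan days, with genotype in the fit, 1 of the 9 genes passed an adjusted p of 0.05, where 38.8% of all genes did. This was Blnk, which was higher in the second set by 0.28 ± 0.09 on the log2 scale (SE; adjusted p = 0.025 by limma). Blnk fell short of this threshold in the series table and without scaling between arrays, where 0 of 9 passed. Ms4a1 (0.35 ± 0.15, adjusted p = 0.084) and Btk (0.21 ± 0.09, adjusted p = 0.066) came next by limma. The day difference of Cd79b was 0.03 ± 0.14 (SE), as its WT mice were higher and its Sting gt/gt mice lower in the later set.

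Genes with more than 1 probe allowed a look at agreement. Of the 14 probes, all were above background on all 14 arrays and none was saturated, and 4 genes (Cd22, Cd72, Btk and Syk) had several. The values above are of the brightest one. All 3 probes of Cd22 were lower in Sting gt/gt mice in the second set, by log2 fold changes of -0.54, -0.40 and -0.62, and those with -0.54 and -0.62 passed the unadjusted threshold of limma. Between the scan days, however, these 3 probes went different ways (-0.07, 0.57 and -0.60). The dimmer probe of Btk was higher in Sting gt/gt mice in the first set (log2 fold change 0.59, past the unadjusted threshold), where the brighter one had -0.02, so the probes of Btk disagreed. The dimmer probe of Cd72 had -0.27 in the second set and that of Syk had -0.01, and neither passed. Over all arrays, the deposited series table gave log2 fold changes close to these for the 9 genes, with Cd72 and Lyn on the other side of 0. In the second set it called Cd79b, Cd22 and Ms4a1 but not Cd79a (log2 fold change -0.37). Btk stayed higher on average in Sting gt/gt mice there, with a smaller log2 fold change of 0.069.

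The members were next set beside 10 markers of B cells other than the members, among them the transcription factor genes Pax5, Ebf1 and Spib and the surface molecule genes Cr2 and Fcer2a. In the second set, where the 4 genes fell, 5 of the 10 markers were called lower in Sting gt/gt mice (among them Pax5, Ebf1 and Spib) and none higher, where 22.1% of all genes were called, with a median log2 fold change of -0.37 beside 0.02 for all genes. Their average was 2.15 to 2.61 in WT and 1.82 to 2.14 in Sting gt/gt mice. Of the same 10 in the first set, 1 was called higher (Fcer2a) and none lower, where 5.56% of all genes were called, with a median of 0.21, and the average was 1.80 to 2.10 in WT and 1.95 to 2.32 in Sting gt/gt mice. No marker was at background on any array. The B cell markers were thus lower on average in Sting gt/gt mice in the second set and higher on average in the first, as were the 4 receptor genes. Over all arrays 1 of the 10 B cell markers was called lower and none higher, where 3.48% of all genes were called. Their median log2 fold change over all arrays was -0.13, with 9 below 0 and 1 above. Markers of red cell precursors lay lower too in the second set, by more than those of B cells. Of these 8 erythroid markers 4 were called lower (among them Epb42 and Ermap) and none higher, where 22.1% of all genes were called. Their median log2 fold change was -0.60, and their average ran from 3.87 to 4.35 in WT and 3.33 to 3.74 in Sting gt/gt mice. In the first set 0 of 8 were called, with a median of -0.15. Over all arrays 1 of the 8 was called lower and none higher, where 3.48% of all genes were called, with a median of -0.42. Of 9 neutrophil markers, 2 were called higher in the second set (Elane and Mpo) and none lower, near the 22.1% of all genes called there. Their list had a median of 0.28, with averages of 5.58 to 5.78 in WT and 5.41 to 6.40 in Sting gt/gt mice. Neither in the first set nor over all arrays was any of the 9 called. Of the 10 T cell markers 0 were called in either set. The part of any of these lists in the result was not tested.

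Array by array, the relation of the receptor genes to the B cell marker average differed between genes. By Pearson r, 3 of 9 genes passed in the first set and 5 of 9 in the second, and by Spearman rho 2 and 3 of 9 did. The share of all genes that would pass was not computed, so these counts cannot be read as particular to the receptor genes. Relations were computed within each set, over both genotypes, for the 9 genes against the B cell average and against an average of 10 markers of macrophages and monocytes, 36 relations in all with exact permutation p-values. Over the 8 arrays of the second set, Cd22 followed the B cell average most closely (Pearson r = 0.97, adjusted p = 0.0031; Spearman rho = 0.95, adjusted p = 0.020; exact permutation tests), and r was 0.96 without the 2 arrays farthest from the median. Cd79a (r = 0.90, rho = 0.93), Ms4a1 (r = 0.91, rho = 0.86), Cd79b (r = 0.86, rho = 0.93) and Blnk (r = 0.87, rho = 0.76) also passed for r, with r of 0.79 to 0.99 after the same omission. Their adjusted exact permutation p-values were 0.0031 to 0.017 for r and 0.020 to 0.13 for rho. The relation of Btk (r = -0.50, rho = -0.60), Lyn (r = -0.23, rho = -0.24), Syk (r = 0.40, rho = 0.43) and Cd72 (r = 0.52, rho = 0.31) to the B cell average did not pass (exact permutation, adjusted p of 0.31 or higher). As the genotypes sat apart on the B cell average in this set, these r hold the genotype difference too.

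Over the 6 arrays of the first set, Ms4a1 (r = 0.99, rho = 1), Cd22 (r = 0.97, rho = 1) and Cd79b (r = 0.95, rho = 0.89) followed the B cell average, with adjusted exact permutation p of 0.014 to 0.022 for r and 0.020 to 0.13 for rho. Without the 2 farthest arrays r was 0.95, 0.97 and 0.81 for these genes. The relation of Cd79a (r = 0.88) rested on those 2 arrays, as r was -0.72 without them. Against the macrophage and monocyte average, 1 of 18 relations passed, that of Cd79a in the first set (r = 0.86, rho = 0.94, adjusted exact permutation p = 0.014 and 0.075; r = 0.74 without the 2 farthest arrays). Syk came nearest in the second set (r = 0.78, rho = 0.67, adjusted exact permutation p = 0.088 and 0.27).

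**Figure D3:**
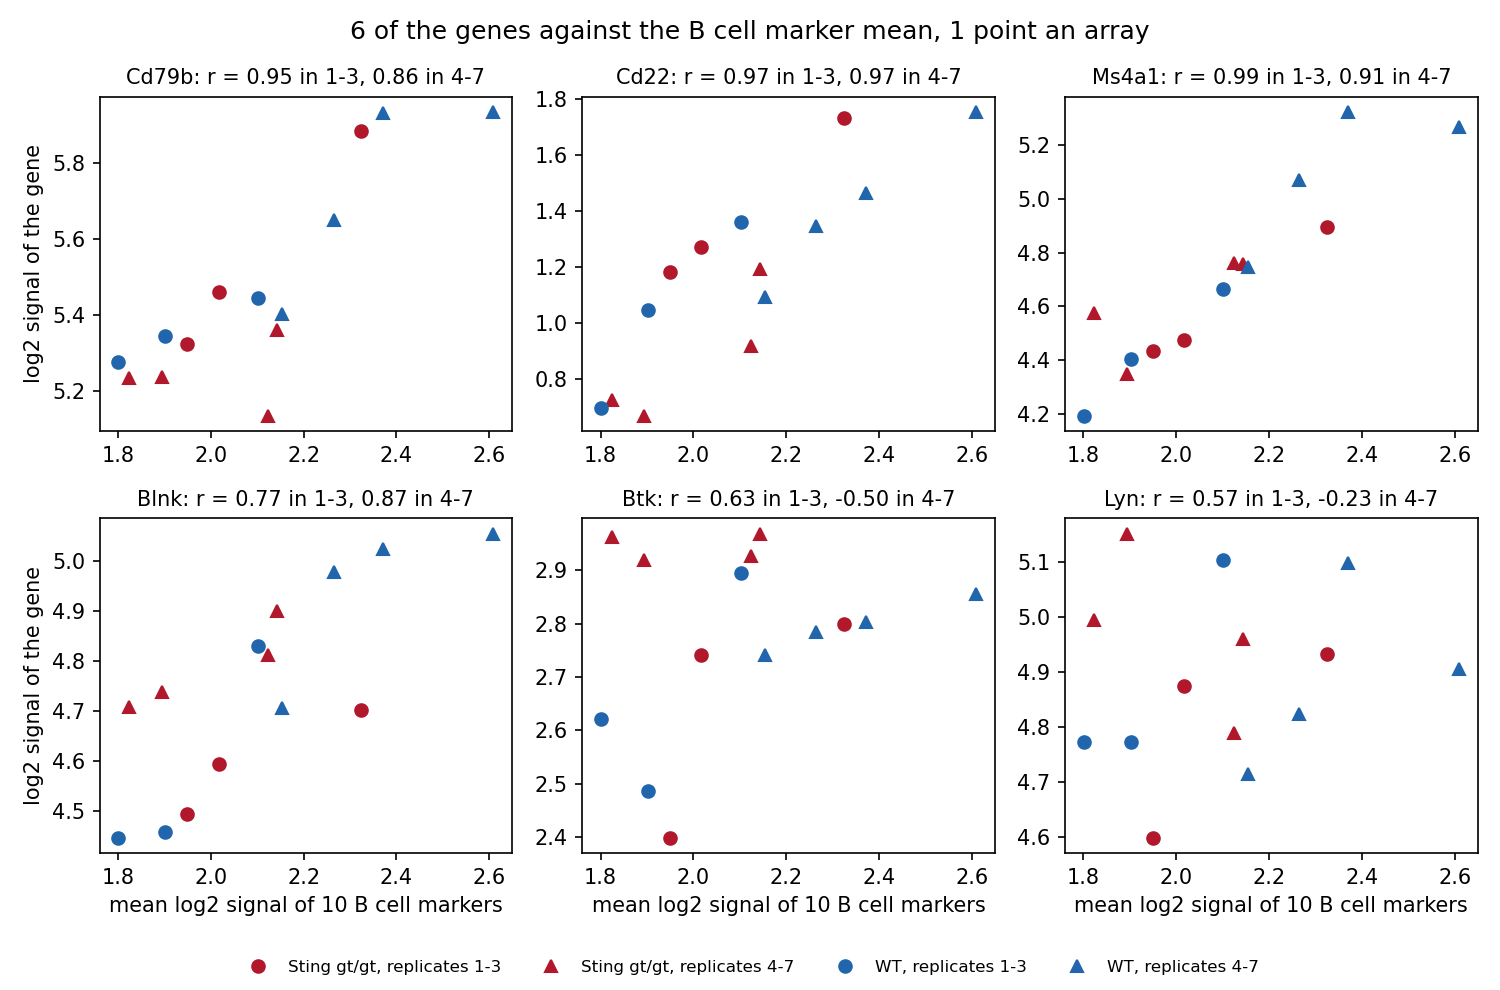
Log2 signal of Cd79b, Cd22, Ms4a1, Blnk, Btk and Lyn (vertical axes) against the mean log2 signal of 10 B cell markers (horizontal axes), with 1 point an array, circles for replicates 1 to 3, triangles for replicates 4 to 7, blue for WT and red for Sting gt/gt. Cd22 rises with the marker mean in both sets (r = 0.97 in each). The 4 Sting gt/gt arrays of replicates 4 to 7 sit above the WT arrays on Btk although their marker mean is lower. On Btk these groups overlap in the series table.

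Markers of plasma cells, which have left the B cell program and secrete antibody, went the other way in the second set. There 5 of 8 were called higher in Sting gt/gt mice and none lower, where 22.1% of all genes were called, 2730 of them higher, and their average was 0.91 to 1.21 in WT and 1.35 to 1.76 in Sting gt/gt mice. None was called higher and 1 lower in the first set. The B cell list and this list share no gene with the 9 members, and the part of either in the receptor genes' values was not tested.

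The genes whose pattern was most like the average of the 9 members were sought over the 14 arrays after subtracting the mean of each genotype and set. The 5 with the highest Pearson r were Ets1 (0.96), Tnfrsf13b (0.95), Prkcq (0.95), Ell3 (0.95) and H2-Ob (0.95). Of these, Ets1 codes for a transcription factor of lymphocytes, Tnfrsf13b for TACI, a receptor of B cell survival factors, Prkcq for PKC theta, a kinase best known from T cells, Ell3 for a transcription elongation factor, and H2-Ob for a chain of H2-O, which modulates class II peptide loading in B cells. H2-Ob is itself 1 of the 10 B cell markers and Tnfrsf13b 1 of the 8 plasma cell markers. The 10 B cell markers, H2-Ob the highest, had r of 0.32 to 0.95 with a median of 0.75, beside a median of 0.02 over all genes. The points share arrays and scaling, and r is given as a description of likeness.

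The wider pathway was read from a list of 79 other BCR signaling genes (coreceptors, surrogate light chains, inhibitory receptors and phosphatases, kinases, adaptors, and the calcium, lipid and NF-kB arms), of which 76 were tested. Over all arrays, 0 of 76 passed the unadjusted threshold, with 39 above 0 and 37 below and a median log2 fold change of 0.00. The lowest 3 were Igll1, whose probe was well above background on 8 of the 14 arrays and is given no fold, and Vpreb1 (-0.40 ± 0.28, SE), the surrogate light chains of the pre-B cell receptor, and Pik3r1 (-0.30 ± 0.22), a regulatory subunit of PI3K. The highest 3 were Vav3 (0.24 ± 0.15), an exchange factor, Lat2 (0.19 ± 0.20), an adaptor, and Fgr (0.16 ± 0.12), a kinase of the same family as LYN. In the second set 8 of 76 passed, 3 higher and 5 lower, where 22.1% of all genes did. Among the lower ones, named after their values were seen, were Siglecg (-0.74), Fcrl1 (-0.36), Sla2 (-0.34) and Rasal3 (-0.34), and the 3 higher ones were Mapk3 (0.36), Vav3 (0.34) and Inpp5d (0.24). Of the lower ones, Siglecg codes for an inhibitory lectin related to CD22, and Fcrl1 for a receptor-like molecule of the B cell surface. Those of the first set, also named by their calls, were 1 higher, Vav2, and 3 lower, Pik3r1 (-0.49), Nfatc3 (-0.40) and Stim1 (-0.24), where 5.56% of all genes were called. The probe of Vav2 was well above background on 9 of the 14 arrays, so no fold is given for it.

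**Figure D4:**
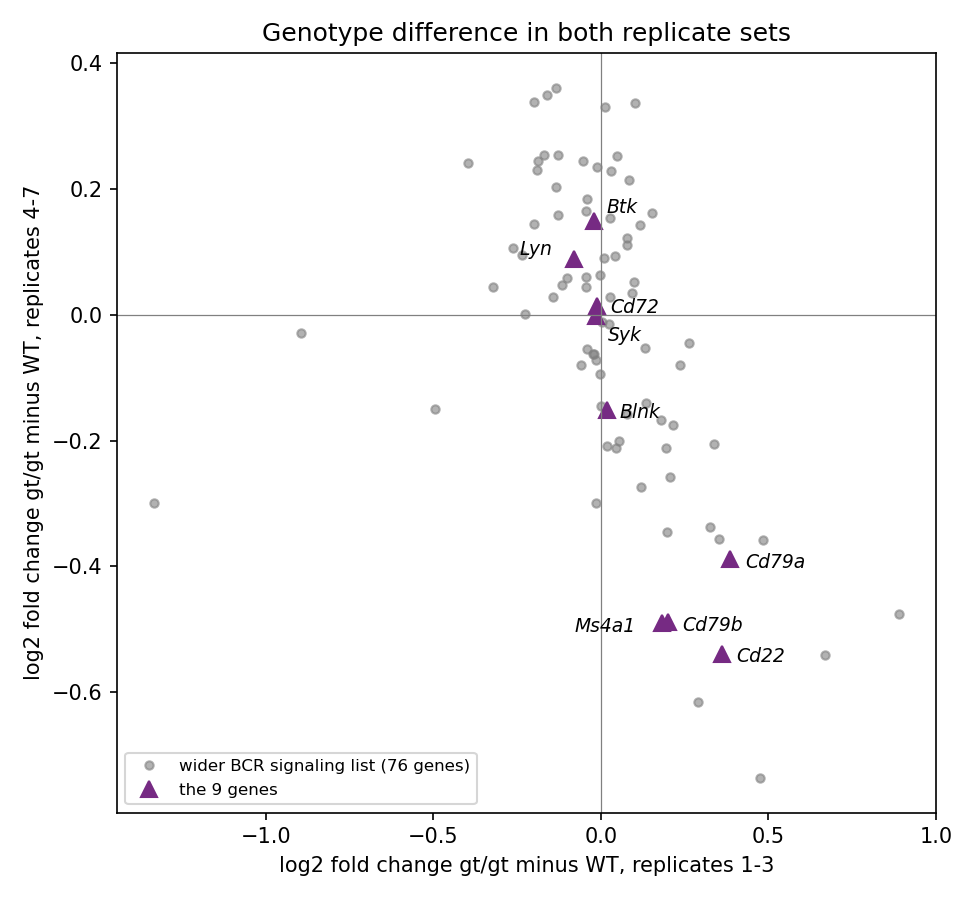
Log2 fold change of Sting gt/gt over WT in replicates 1 to 3 (horizontal axis) and in replicates 4 to 7 (vertical axis) for the 9 genes (purple triangles, named) and the 76 tested genes of the wider BCR list (grey circles). Cd79a, Cd79b, Cd22 and Ms4a1 lie in the lower right, above 0 in replicates 1 to 3 and below 0 in replicates 4 to 7, and the other 5 genes lie between -0.15 and 0.15 on both axes.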

How the data were processed

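RNA of splenocytes of 7 WT and 7 Sting gt/gt mice was hybridised to one-colour Agilent arrays, 1 array a mouse. Per the file headers, the intensity values are those of the software Agilent Feature Extraction 11.0.1.1, which the authors ran with background correction of each spot and no scaling between arrays. The log2 values of the deposited series table are 1 per probe and array, and their normalization is not given in the sources used here. They correlated with the log2 intensity of the same array at 0.997 to 0.999. The number of arrays limits the precision, and p-values set a difference against the spread between arrays within groups. All Sting gt/gt arrays of the second set shared 1 slide. Their spread thus holds no difference between slides, while the genotype difference there can hold one.

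Processed intensities were log2 transformed, and the 75th percentile of the array was subtracted. Outlier spots as marked by the scanner software were dropped, repeat spots of 1 probe were averaged, and a probe entered the test if at least 7 of 14 arrays had it well above background. Probes were named by accession through a RefSeq table (assembly GRCm38.p6), which matched 32994 of 56605 probes (58.3%), and only names and start regions were taken from it, as the array was designed on an earlier build. A gene was read from its brightest tested probe. Genotypes were compared over all genes without covariates, as the study states none, with lmFit and eBayes of limma 3.58.1 (R 4.3.3), and within the replicate sets by a fit with 4 groups (genotype by scan day). Exact permutation tests were two-sided and run in R, or for correlations in Python 3.11.15 with numpy 2.4.6. Alternatives were other scalings, background corrections, filters, probe choices, tests, blocks and arrays left out. Ighm, Ighd and Pag1 of the wider list were not tested. The fits were tested on simulated data.

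The members and lists were chosen with earlier results of these data known. The genes named are the 9 members, Sting1, the 3 highest and 3 lowest of the wider list with any past the threshold over all arrays, and the 5 most like the members' average. Genes of the wider list and marker lists called within 1 set, and the markers given as examples, were named outside this rule after their values were seen. The same replicate numbers occur in both genotypes, and the labels state no pairing. Deviations of same-numbered mice from their group means correlated at 0.16 to 0.53 over all genes for the 7 numbers. Once scan-day means were removed, they correlated at -0.41 to 0.25, so the likeness of same-numbered mice comes with the scan day.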

Additional observations from a re-analysis of the deposited data

Results flagged for a closer look

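For 4 of the 9 genes the genotype difference in replicates 4 to 7 departed from that in replicates 1 to 3, by a test of that difference. The departure was -0.77 on the log2 scale for Cd79a, -0.69 for Cd79b, -0.90 for Cd22 and -0.67 for Ms4a1, with limma p of 0.012, 0.0077, 0.0076 and 0.018 and adjusted p of 0.16, 0.13, 0.13 and 0.18, so none held after adjustment over all genes. The scan day, the slides and the set of mice moved with it, and their part was not tested.

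A single array stood apart in 2 of 36 groups of 4 or 7 arrays examined, where chance gives about 5% of groups. In the 7 Sting gt/gt mice, the gap of replicate 3 to the next value of Cd79a took 0.59 of the whole range, at the upper end. In the same mice the gap of replicate 1 to the next value of Btk took 0.60 of the range, at the lower end.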

How the results depend on the processing

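In the alternatives run for each, the count of members called over all arrays was 0 except for 2 with array weights and an intensity trend, and 0 or 1 with 1 array left out. It was 3 to 4 in replicates 4 to 7 and 0 to 1 in replicates 1 to 3 with 1 array left out, and 0 for the difference between the sets. Fits on the arrays of 1 scan day alone, added after seeing the data, gave the same counts as the shared fit. The replicate block changed no call of a member; over all genes it gave 1416 calls, beside 868 without it, 1812 with scan day as a block, 445 with slide as a random block, 4757 with array weights and a trend, 1928 in the series table, 997 by the methods' t-test (1 after Benjamini-Hochberg adjustment) and 496 to 1967 with 1 array left out. The wider list had 10 calls with array weights, 3 with slide as a fixed block, 2 in the series table, 1 with scan day as a block and 0 to 4 with 1 array left out. Between the scan days 0 members passed without scaling and in the series table.

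Members near 0 changed sign in many settings. With slide as a fixed block, Cd79b, Cd22 and Ms4a1 changed sign too, from -0.19, -0.15 and -0.20 in the main fit over all arrays. No member was called in a setting where its sign changed, and the cause was not tested. Over all arrays, Cd72 was -0.0040 with quantile scaling, -0.0088 with median centring, -0.051 without scaling, -0.00050 with normexp, -0.0042 in the series table, -0.073 as the mean of its probes, -0.19 with slide as a fixed and -0.046 as a random block. Lyn was -0.0056 with quantile scaling, -0.038 without scaling, -0.013 with normexp, -0.012 in the series table, -0.15 and -0.055 with slide as a fixed and random block. Syk was 0.0086 with array weights. With slide fixed, Cd79a was 0.26, Cd79b 0.038, Cd22 0.23, Ms4a1 0.064 and Btk -0.12; with slide random, Cd79a was 0.082, Cd22 0.050 and Btk -0.017. In replicates 1 to 3, Cd72 was 0.036, 0.033 and 0.0013 with quantile scaling, the series table and the mean of probes, Btk 0.024, 0.024 and 0.28, Syk 0.031 and 0.033 with the first 2, and Blnk -0.051 without scaling. In replicates 4 to 7, Cd72 was -0.034 with quantile scaling, -0.030 without scaling, -0.032 in the series table, and -0.13 as the mean of probes. With 1 array left out, the log2 fold change over all arrays ranged from -0.17 to 0.031 for Cd79a, -0.050 to 0.068 for Cd72, -0.026 to 0.066 for Lyn and -0.039 to 0.032 for Syk. In replicates 1 to 3 it ranged from -0.15 to 0.21 for Cd72, -0.11 to 0.10 for Btk, -0.048 to 0.14 for Blnk, -0.15 to 0.029 for Lyn and -0.12 to 0.092 for Syk, and in replicates 4 to 7 from -0.080 to 0.12 for Cd72 and -0.079 to 0.052 for Syk.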
